A study of Gallus gallus with 12 samples.

Results

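The cells described here were 146 cell barcodes of embryonic day 16 (E16) chick retina chosen on RNA of the transcription factor EOMES and the neuropeptide genes NTS (neurotensin) and NPFF (neuropeptide FF), mostly EOMES together with NTS. They were found among 9159 E16 barcodes, of 95805 in the whole series, by a rule on raw counts of unique molecular identifiers (UMIs, 1 per captured transcript). At least 2 of the 3 genes had to be detected, and TFAP2A and TFAP2B, transcription factors of amacrine cells, had to sum to fewer than 2 UMIs. They are called EOMES/NTS/NPFF cells below.

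The series held 12 droplet-based 3′ libraries of retina from untreated embryos of specific pathogen free chick eggs, with 4 libraries of whole retina at E12 and 4 at E18. The 4 E16 libraries held cells enriched for retinal ganglion cells, whose axons form the optic nerve, by magnetic beads with an antibody to Thy-1. Of these, 2 came from dorsal and 2 from ventral retina, and their stage was taken as E16 from titles, stage fields and protocol, although the description fields named E18. Sex, strain and the number of embryos per library were not given. The p-values measure only how the difference between sets of cells varied over the 2 ventral libraries, with a variance mostly shared across genes. This variation may be technical. The comparison cells were the 5972 other ventral barcodes with RBPMS2, NEFM and NEFL, genes of ganglion cells, summing to at least 2 UMIs (3129 in ventral library 1 and 2843 in ventral library 2).

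Ventral libraries were deeper than dorsal ones, with medians of 4161 and 4166 UMIs per barcode against 1670 and 1872. EOMES/NTS/NPFF cells had medians of 3386 UMIs in ventral library 1 and 3520 in ventral library 2, below the 4369 and 4395 UMIs of the comparison cells. The ventral libraries shared 14 barcode sequences, 1 of them of an EOMES/NTS/NPFF cell, and dorsal library 2 shared 9 with ventral library 1, again with 1 of these cells.

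EOMES, also called TBR2, is a T-box transcription factor that in mouse marks the intrinsically photosensitive ganglion cells. These cells contain the photopigment melanopsin, signal through a Gq protein, phospholipase C and TRPC channels, and carry light information to brain centres that set the daily clock and the pupil. Birds have a pair of melanopsin genes, listed here as OPN4-1 (OPN4x among the RefSeq synonyms) and OPN4 (OPN4m). Many other ganglion cells contain POU4F-family (BRN3) transcription factors.

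The joint presence of EOMES and NTS made up most of the group. EOMES with NTS and without NPFF was found in 119 of the 146 cells, EOMES with NPFF in 15, NTS with NPFF in 6 and all 3 genes in 6. EOMES was thus present in 140 of the cells, NTS in 131 and NPFF in only 27. These values chose the cells and are given as a description.

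The level of EOMES in the EOMES/NTS/NPFF cells was 491 CPM (UMI counts per 1000000 of the set of cells) in ventral library 1 and 534 in ventral library 2, against 18.3 and 22.2 in the comparison cells. NTS stood at 800 and 736 CPM against 9.90 and 9.22. NPFF stood at 167 and 119 CPM against 26.1 and 7.96. EOMES and NTS were alike in both ventral libraries, while NPFF of the comparison cells was higher in ventral library 1.

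Over all E16 barcodes, EOMES was detected in 6.45%, but in 36.7% of those with NTS and in 12.8% of those with NPFF. Conversely, NTS was detected in 3.99% of all barcodes, in 22.7% of those with EOMES and in 6.42% of those with NPFF. NPFF was found without the other pair of genes in 152 barcodes with fewer than 2 TFAP2A and TFAP2B UMIs, against the 27 EOMES/NTS/NPFF cells that held it. The group was therefore mainly defined by EOMES and NTS, and NPFF lay mostly outside it.

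The rule found EOMES/NTS/NPFF cells in the ventral libraries only. There were 76 among 3585 barcodes of ventral library 1 (2.12%, 95% exact binomial interval 1.67 to 2.65%) and 70 among 3262 of ventral library 2 (2.15%, 1.68 to 2.70%). Dorsal library 1 had 0 of 955 barcodes and dorsal library 2 had 0 of 1357, and 0 of 2312 dorsal barcodes together allows a share of up to 0.130% (3 counts of the total; intervals and such limits cover counting error only). With each barcode thinned to 1500 UMIs and shallower barcodes left out (194 and 188 in the ventral libraries, 382 and 490 in the dorsal ones), the ventral shares were 0.947% and 1.05%. The dorsal share remained 0 of 1440 barcodes, which allows up to 0.208%.

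**Figure D1:**
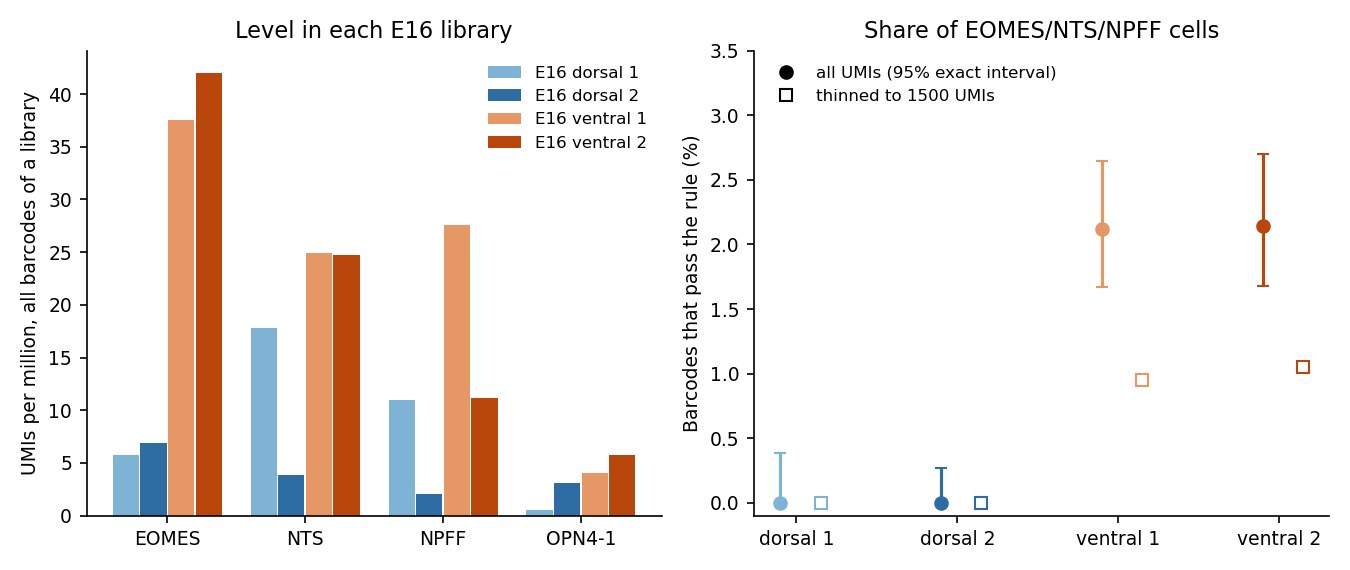
Left, level of EOMES, NTS, NPFF and OPN4-1 in CPM over all barcodes of each E16 library (bars, 1 library each); right, percent of barcodes that passed the rule, with all UMIs (filled circles, 95% exact binomial interval) and after thinning to 1500 UMIs (open squares). Both dorsal libraries sit at 0 and both ventral libraries just above 2% at full depth and near 1% after thinning.

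The summed level of EOMES over all barcodes of a library was also lower in dorsal retina, at 5.76 and 6.93 CPM against 37.5 and 42.0 CPM in ventral retina. OPN4-1 was at 0.576 and 3.12 CPM in the dorsal and 4.07 and 5.71 CPM in the ventral libraries, the dorsal values resting on 1 and 9 UMIs. NTS was at 17.8 and 3.81 CPM in the dorsal and 24.9 and 24.7 CPM in the ventral libraries. NPFF was at 10.9 and 2.08 CPM against 27.6 and 11.1 CPM. In all 4 genes the ventral libraries lay above the dorsal ones, for NPFF by a narrow gap. With 2 libraries a region no exact permutation test can reach 0.05, and region, depth and cell yield cannot be told apart. Fewer cells of a type and less RNA per cell cannot be told apart in these sums either.

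Barcodes on both sides of the threshold were set side by side. Of the 146 cells, 31 were just inside it, with 1 UMI of each of 2 genes. Just outside it, 292 ventral barcodes had EOMES alone, 183 NTS alone and 144 NPFF alone, with the same limit on TFAP2A and TFAP2B. A further 12 barcodes had at least 2 of the genes but 2 or more TFAP2A and TFAP2B UMIs.

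OPN4-1, which the rule did not use, was detected in 12.3% of the EOMES/NTS/NPFF cells (95% exact interval 7.47 to 18.8%) and in 19.4% of the 31 cells just inside the threshold. It was found in 6.51% of the barcodes with EOMES alone, 4.92% with NTS alone and 2.08% with NPFF alone. Ganglion cells with none of the 3 genes had it in 0.679%. Amacrine-like barcodes with at least 4 TFAP2A and TFAP2B UMIs had it in 0.569%, at a median of 3110 UMIs per barcode against 3448 in the EOMES/NTS/NPFF cells.

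POU4F1 followed the opposite order. It was detected in 21.2% of the EOMES/NTS/NPFF cells, 51.7% of barcodes with EOMES alone, 63.4% with NTS alone, 77.8% with NPFF alone and 88.4% of ganglion cells with none of the 3 genes. The amacrine-like barcodes had it in 13.7%. NDNF, which encodes a secreted neurotrophic factor, was found in 41.1% of the EOMES/NTS/NPFF cells, 15.8% with EOMES alone and at most 5.56% in the other classes.

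**Figure D2:**
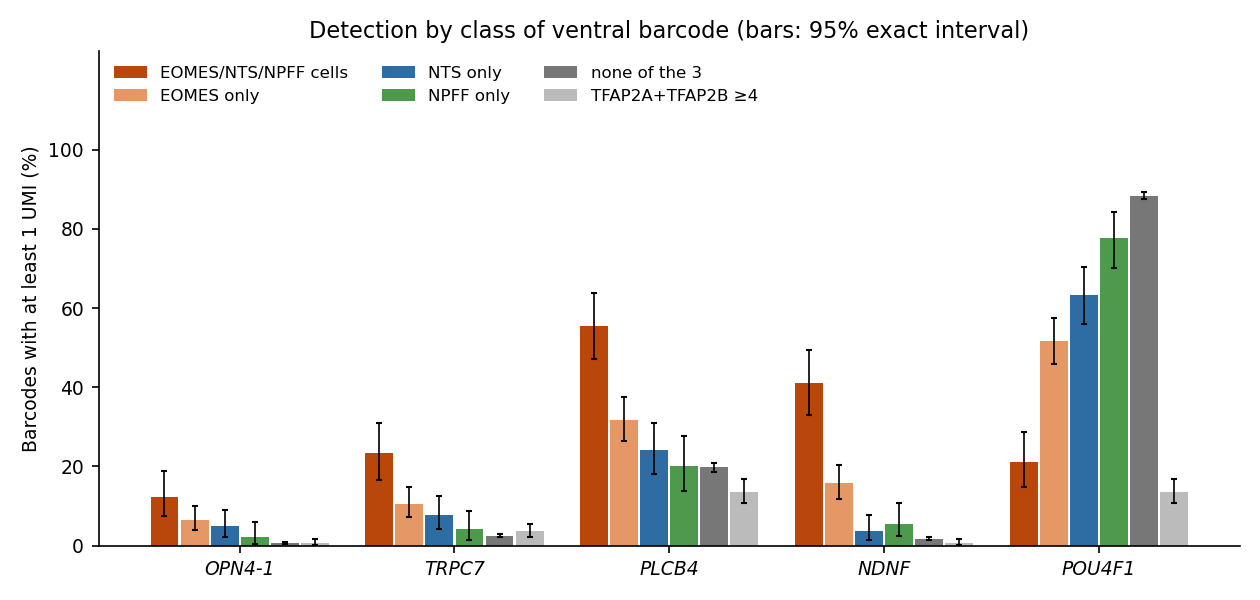
Percent of ventral barcodes with at least 1 UMI of 5 genes that the rule did not use (y axis), by class of barcode (colours; error bars are 95% exact binomial intervals, counting error only). Among the 6 classes drawn, detection of OPN4-1, TRPC7, PLCB4 and NDNF is highest in the EOMES/NTS/NPFF cells, and that of POU4F1 is 21.2% there against 88.4% in ganglion cells with none of the 3 genes. Comparison cells that fell into the cluster with most EOMES/NTS/NPFF cells, described below, are not drawn as a separate class.

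The cells lay together when clusters were made without EOMES, NTS, NPFF, TFAP2A and TFAP2B. Among 52 Leiden clusters of all E16 barcodes, 120 of the 146 cells (82.2%) fell into a cluster of 250 barcodes, 65 from ventral library 1 and 55 from ventral library 2. The leading genes of that cluster were NTS, NDNF, PCP4, EOMES, PLCB4, OPN4-1, DHRS3, SLIT1, CRHR2 and RASGRP3, which describes it and is no test. A second cluster of 219 barcodes held 13 of the cells and was led by NPFF, COL26A1 and ONECUT3. It contained 5 of the 6 cells with NTS and NPFF, and the last 13 cells were spread over 11 clusters.

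The cluster with most of the cells also held 115 comparison cells that had missed the rule, 1.93% of all comparison cells. They carried 78 of the 109 OPN4-1 UMIs of the comparison cells (71.6%) and 102 of their 208 NDNF UMIs (49.0%). OPN4-1 was detected in 32.2% of them and NDNF in 50.4%, more than in the EOMES/NTS/NPFF cells. Their OPN4-1 level was 236 CPM, against 54.0 CPM in the EOMES/NTS/NPFF cells and 1.09 CPM in the 5694 comparison cells outside both clusters. Their POU4F1 level was 33.3 CPM against 992 CPM in those 5694 cells. PLCB4 was at 740 CPM in the 115 cells and at 501 CPM in the EOMES/NTS/NPFF cells. In the same order, TRPC7 was at 87.9 and 72.0 CPM and TBX20 at 33.3 and 21.6 CPM. CRHR2 was lower in the 115 cells, at 112 CPM against 182 CPM. The comparison below keeps these 115 cells among the comparison cells, as the rule does.

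**Figure D3:**
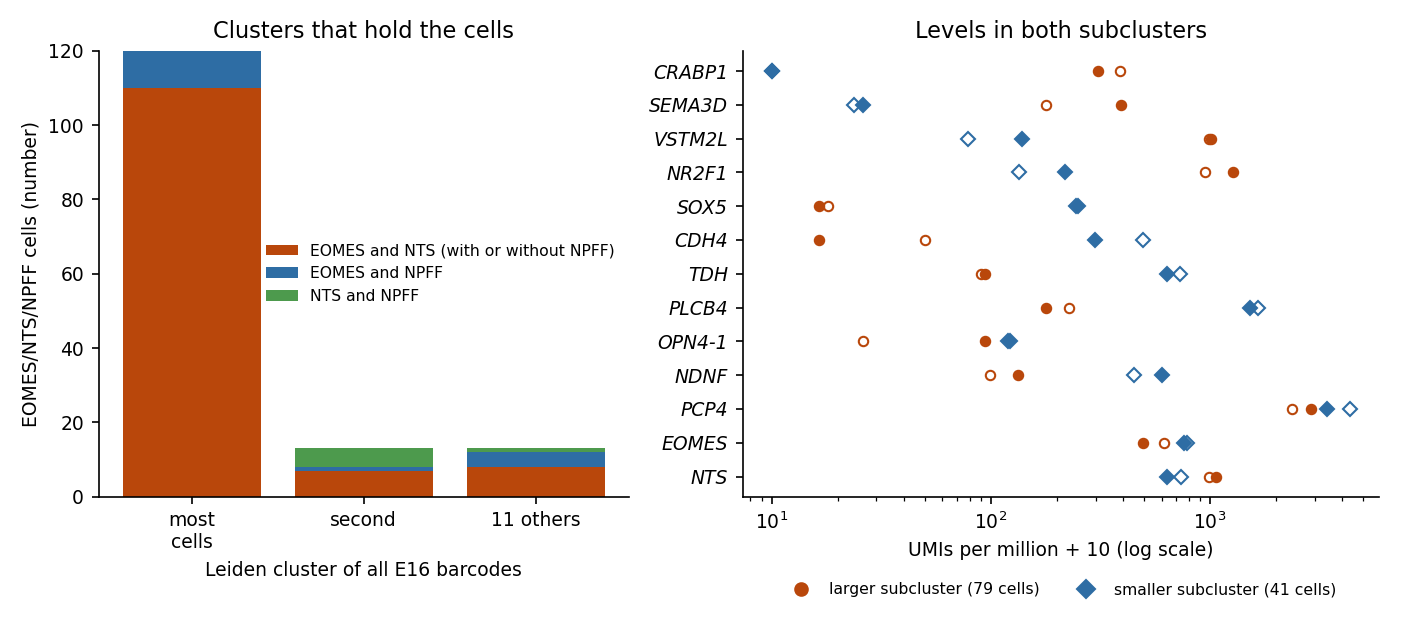
Left, number of EOMES/NTS/NPFF cells in the cluster with most of them, in the second cluster and in the 11 others, coloured by the genes detected; right, levels in CPM plus 10 (log scale) of 13 genes in the larger and smaller subcluster, 1 point per ventral library (filled, library 1; open, library 2). Of the 146 cells, 120 lie in the first cluster, and levels of CRABP1, SEMA3D, VSTM2L, NR2F1, SOX5, CDH4, TDH and PLCB4 separate its subclusters.

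At a finer resolution the main cluster split into subclusters with 79 and 41 of the EOMES/NTS/NPFF cells, each from both ventral libraries (45 and 34, and 20 and 21). EOMES was at 539 CPM in the larger and 763 CPM in the smaller subcluster, and NTS at 1020 and 682 CPM. The larger subcluster contained CRABP1, a retinoic acid binding protein, in 18 of its 79 cells at 334 CPM, with 0 UMIs in the 41 cells of the smaller. It was also higher in NR2F1, an orphan nuclear receptor, at 1258 and 942 CPM in libraries 1 and 2 against 208 and 124 CPM.

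The smaller subcluster had PLCB4 in 38 of 41 cells, at 1507 and 1639 CPM against 169 and 217 CPM in the larger. NDNF was at 593 and 441 CPM against 123 and 88.6 CPM, and SOX5, a transcription factor, at 241 and 234 CPM against 6.48 and 8.05 CPM. OPN4-1 was present in both, in 9 of 79 and 9 of 41 cells. The genes were part of the clustering, so their differences are a description with no test.

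Summed UMIs of the EOMES/NTS/NPFF cells and of the comparison cells were then compared within the ventral libraries (edgeR quasi-likelihood test with the library as block, Benjamini-Hochberg adjustment over 11869 genes). A gene was called at an adjusted p under 0.05 and a change of at least 2-fold. In all, 225 genes (1.9%) were higher and 220 (1.85%) lower in EOMES/NTS/NPFF cells. Without the trimmed-mean (TMM) scaling the split was 279 higher and 178 lower, and the median difference over all genes moved from -0.08 to 0.03 on the log2 scale. DESeq2 called 177 higher and 100 lower. Other alternatives leaned the other way. With no low-count filter the split was 204 higher and 290 lower, with a median of -0.38. With at least 2 UMIs required of a rule gene it was 113 and 208, and with EOMES and NTS both required 257 and 297.

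The values of the 2 sets did not overlap between libraries for 56.7% of all genes tested. They did not overlap in any called gene named below, so that both libraries showed the direction given. For the genes with the largest rise and fall the naming rule required this. Differences are on the log2 scale as EOMES/NTS/NPFF cells minus comparison cells, with approximate standard errors after ±. These were derived from the test, as the size of the difference over the square root of its F statistic. Levels are CPM in ventral libraries 1 and 2. A call lost without a ventral library is given beside the gene, and a call lost under another alternative beside genes that kept it without either library.

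In melanopsin signalling, OPN4-1, PLCB4, TRPC7 and TBX20 rose over the comparison cells as a whole. All were at higher levels in the 115 comparison cells of the main cluster than in the EOMES/NTS/NPFF cells, which was not tested. Of 13 listed genes tested, these 4 were called higher and 0 lower, while 1.9% of all genes were called higher and 1.85% lower, with a median difference of 0.62 against -0.08 over all genes. Of the 4, TBX20 passed the low-count filter only through its level in the EOMES/NTS/NPFF cells, so it could only be called higher. OPN4-1, a melanopsin, was at 74.4 and 34.9 CPM in the EOMES/NTS/NPFF cells and at 2.99 and 5.28 CPM in the comparison cells. The EOMES/NTS/NPFF cells were higher in both libraries, by 3.62 ± 0.51 (edgeR adjusted p = 6.02e-05), on 30 UMIs. Without ventral library 1 the difference was 2.64 and without ventral library 2 it was 4.51, both called. When a gene of the rule had to have at least 2 UMIs to count, which left 54 cells, the difference was 2.40 and the call was lost (edgeR adjusted p = 0.297). At this threshold, here and below, dropped cells with at least 2 UMIs of RBPMS2, NEFM and NEFL counted as comparison cells. The comparison cells then numbered 3176 in ventral library 1 and 2877 in ventral library 2.

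PLCB4, the phospholipase C that acts in this pathway in mouse, was at 458 and 541 CPM against 57.6 and 64.5 CPM. It rose by 2.93 ± 0.12 (edgeR adjusted p = 3.14e-12). TRPC7, a cation channel of the pathway in mouse, was at 81.9 and 62.8 CPM against 6.91 and 8.27 CPM, a rise of 3.14 ± 0.37 (edgeR adjusted p = 6.94e-06). Both sets of values lay far apart in either library.

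TBX20, a T-box transcription factor of mouse photosensitive ganglion cells, had 12 UMIs in the 146 cells and 14 in the 5972 comparison cells. Its levels were 18.6 and 24.4 CPM against 0.356 and 0.709 CPM, a difference of 5.19 ± 0.80 (edgeR adjusted p = 1.59e-04). On the comparison cells alone TBX20 would not have passed the low-count filter. The call held without ventral library 1 (4.97), and without ventral library 2 the gene did not pass the low-count filter and was not tested. The second melanopsin, OPN4, had 1 UMI in the EOMES/NTS/NPFF cells and 95 in the comparison cells and did not pass the test (edgeR adjusted p = 0.786). It was detected in 3.42% of amacrine-like barcodes and in 0.685% of EOMES/NTS/NPFF cells. ADCYAP1, which encodes the peptide PACAP of mouse photosensitive ganglion cells, was at 260 and 234 CPM against 193 and 188 CPM and was not called (edgeR adjusted p = 0.330).

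Of 58 transcription factors of ganglion cells, 19 were called lower and 6 higher, beside 1.85% and 1.9% of all genes, with a median difference of -0.80. POU4F1 stood at 127 and 164 CPM in EOMES/NTS/NPFF cells against 952 and 974 CPM in comparison cells, both libraries well below. The difference was -2.83 ± 0.13 (edgeR adjusted p = 2.01e-11). POU4F3, of the same family, was at 22.3 and 31.4 CPM against 99.3 and 107 CPM (-2.04 ± 0.28, edgeR adjusted p = 5.50e-05).

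POU4F2, the third member of the family, was at 354 and 307 CPM against 489 and 496 CPM. Its difference of -0.68 ± 0.12 had an edgeR adjusted p of 4.68e-04 but was under 2-fold, so it was not called. ISL1, a LIM-homeodomain factor, was at 246 and 244 CPM against 355 and 358 CPM and was not called either (-0.64 ± 0.13). Its relative ISL2 fell, at -3.01 ± 0.29 (22.3 and 17.5 CPM against 147 and 149 CPM). At the threshold of 2 UMIs per rule gene, POU4F2 (-1.09, edgeR adjusted p = 7.77e-05) and ISL1 (-1.05, edgeR adjusted p = 8.53e-04) were called lower.

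Other factors that fell included BCL11B, a zinc finger factor, at 22.3 and 27.9 CPM against 159 and 152 CPM. TBX2 (-2.74 ± 0.37), ID4 (-2.75 ± 0.35), FOXP1 (-2.50 ± 0.21), FOXP2 (-2.21 ± 0.22) and TFAP2D (-2.23 ± 0.24), all transcriptional regulators, were lower too. TBR1, the closest relative of EOMES, had 3 UMIs in the EOMES/NTS/NPFF cells and was lower by a ratio of 6.04 (95% counting interval 2.06 to 29.3). All of its 3 UMIs came from ventral library 1, and the call was lost without ventral library 2 (-1.68, edgeR adjusted p = 0.124) and with DESeq2.

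Among the factors that rose, NR2F1 was at 781 and 527 CPM against 108 and 104 CPM (2.51 ± 0.12). NFIB was at 48.4 and 24.4 CPM against 4.77 and 4.10 CPM (2.91 ± 0.51, edgeR adjusted p = 6.65e-04), and lost its call without ventral library 1 (2.49, edgeR adjusted p = 0.0698). IRX3, IRX5, VAX1 and ONECUT2 were the other 4 called higher, and each lost its call without at least 1 ventral library. IRX3 was at 1.14 without ventral library 2 and VAX1 at 0.91 without ventral library 1. IRX5 was not called with either library left out, at 1.19 without ventral library 1 and 0.96 without ventral library 2.

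**Figure D4:**
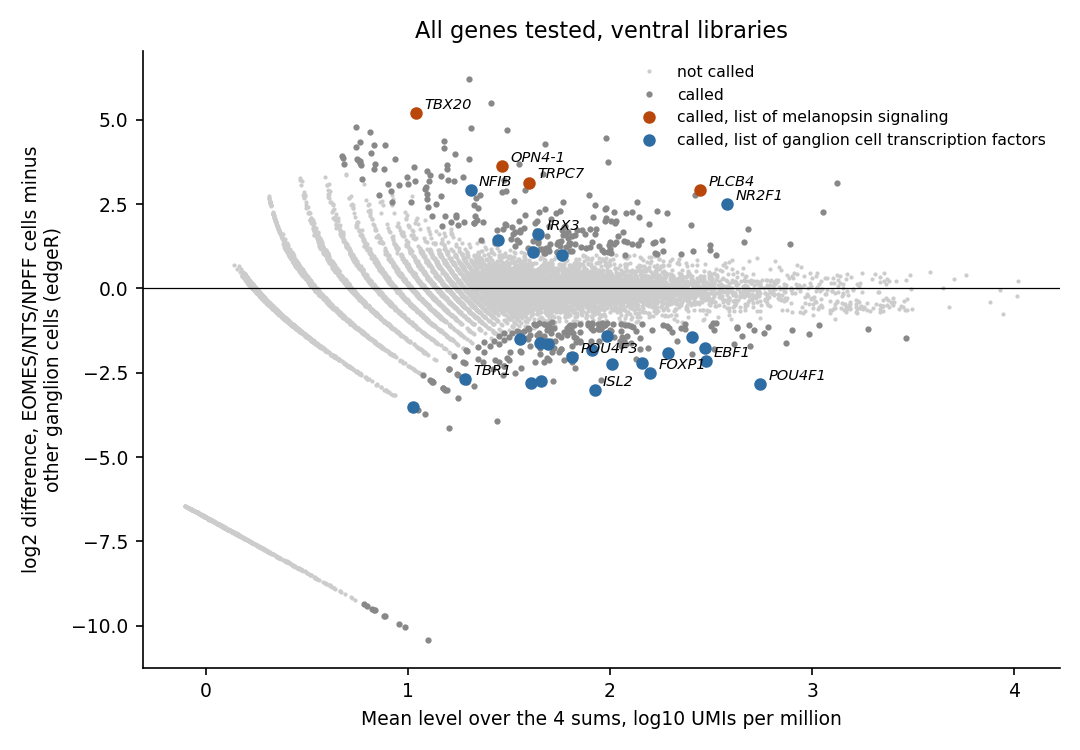
Mean level over the 4 sums (x axis, log10 CPM) and log2 difference between EOMES/NTS/NPFF cells and other ganglion cells of the ventral libraries (y axis, edgeR) for 11869 genes, with called genes in dark grey and called genes of both lists in colour. The band at the lower left is the 472 genes with 0 UMIs in EOMES/NTS/NPFF cells, whose plotted values depend on the added prior count; the 4 melanopsin signalling genes lie above 2.9 and POU4F1 at -2.83.

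**Figure D5:**
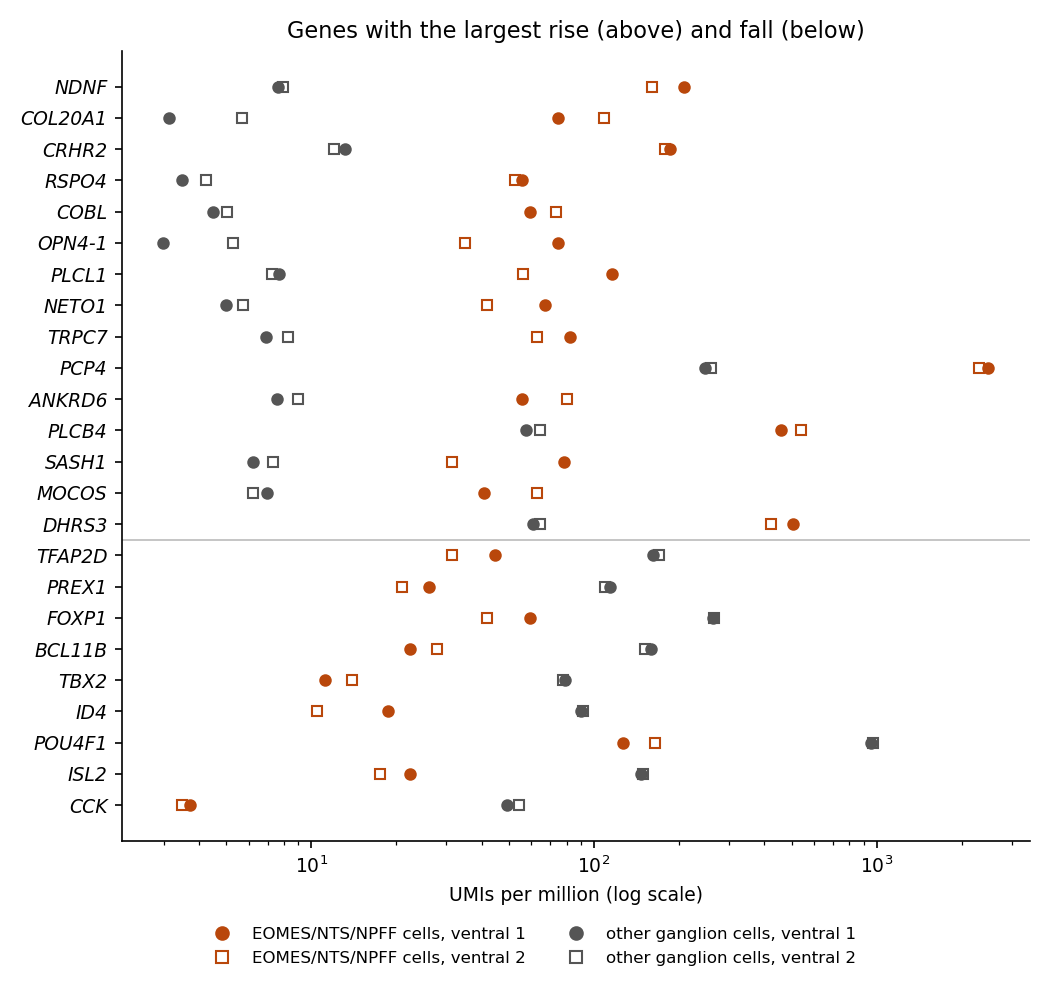
Levels in CPM (log scale) of the 15 genes with the largest rise and 9 of the 10 with the largest fall under the naming rule, 1 point per ventral library and set of cells. In every gene both EOMES/NTS/NPFF values lie on the same side of both comparison values, as the naming rule required.

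Outside these lists, the gene with the largest rise under the naming rule was NDNF, at 208 and 161 CPM against 7.62 and 7.96 CPM (4.46 ± 0.26, edgeR adjusted p = 4.32e-10). COL20A1, a collagen, followed at 74.4 and 108 CPM against 3.13 and 5.67 CPM (4.27 ± 0.36). DHRS3, an enzyme of retinoid metabolism, was at 506 and 422 CPM against 60.6 and 64.6 CPM (2.78 ± 0.13). RSPO4, a secreted activator of Wnt signalling, was at 55.8 and 52.4 CPM against 3.49 and 4.25 CPM.

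COBL, an actin nucleator, rose by 3.69 ± 0.40, and PLCL1, a phospholipase C-like protein, by 3.40 ± 0.36. NETO1, an auxiliary protein of glutamate receptors, rose by 3.23 ± 0.44 but was not called when both sets were limited to barcodes of at least 4000 UMIs. It had 29 UMIs in the larger and 0 in the smaller subcluster. ANKRD6 rose by 2.94 ± 0.36 and MOCOS by 2.87 ± 0.42. SASH1 rose by 2.90 ± 0.45 and was no longer called without ventral library 1 (2.01, edgeR adjusted p = 0.0522). PREX1, a Rac activator, was at 26.0 and 20.9 CPM against 114 and 110 CPM and fell by 2.35.

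Neuropeptide genes and receptors moved both ways. Of 20 tested, 3 were higher and 4 lower, beside 1.9% and 1.85% of all genes, with a median of -0.31. CRHR2, a receptor of the corticotropin-releasing hormone family outside this list, was among the genes with the largest rise, at 186 and 178 CPM against 13.1 and 11.97 CPM (3.75 ± 0.23, edgeR adjusted p = 1.42e-09). In the list, SSTR2, a somatostatin receptor, was at 130 and 136 CPM against 35.2 and 38.2 CPM (1.76 ± 0.21), and OPRL1, the nociceptin receptor, at 119 and 66.3 CPM against 35.0 and 32.8 CPM. OPRL1 lost its call without ventral library 1 (0.93).

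The peptide CCK was almost absent from the EOMES/NTS/NPFF cells, with 2 UMIs against 1375 in the comparison cells. That is a level lower by a ratio of 14.3 (95% counting interval 3.95 to 118, edgeR adjusted p = 9.34e-05). TAC1, the substance P precursor, was at 186 and 258 CPM against 426 and 421 CPM (-1.03 ± 0.14), and was under 2-fold without ventral library 1 (-0.79). SST, somatostatin, was at 3.72 and 34.9 CPM against 73.9 and 67.0 CPM, and its call was lost without ventral library 1 (-1.02, edgeR adjusted p = 0.147).

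UTS2B, a urotensin-related peptide, had 2 UMIs in the EOMES/NTS/NPFF cells and was lower by a ratio of 7.66 (2.11 to 63.4), a call lost without ventral library 2 (-2.13 on the log2 scale). PDYN, prodynorphin, was higher on 6 UMIs, at 18.6 and 3.49 CPM against 0.499 and 0.473 CPM, and lost its call when EOMES and NTS were both required and with no low-count filter (edgeR adjusted p = 0.106). In the main comparison PDYN passed the low-count filter only through the EOMES/NTS/NPFF cells, so it could only be called higher. Without either ventral library PDYN did not pass this filter and was not tested. Of 19 genes of peptide processing and dense-core vesicles, 2 were higher and 1 lower, beside 1.9% and 1.85% of all genes. CHGB, the granin chromogranin B, was at 718 and 785 CPM against 212 and 204 CPM (1.75 ± 0.10), and PTPRN, a vesicle membrane protein, at 324 and 293 CPM against 143 and 139 CPM. PTPRN was close to the 2-fold limit and under it without ventral library 1 (0.99). SYT4, a synaptotagmin, fell by 1.70 ± 0.12.

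Of 42 genes of fast transmitter systems, 3 were higher and 2 lower, beside 1.9% and 1.85% of all genes. SLC17A6, the glutamate transporter of ganglion cell synaptic vesicles, was at 85.6 and 133 CPM against 57.7 and 64.0 CPM, under the 2-fold limit (0.74 ± 0.21, edgeR adjusted p = 0.0360; 0.46 without ventral library 2). GAD1, a synthesis enzyme of the transmitter GABA, had 4 UMIs and was not called. GAD2, the other such enzyme, had 0 UMIs among 555223, which allows up to 5.40 CPM. The comparison cells were at 9.83 and 8.67 CPM, and GAD2 was not called (edgeR adjusted p = 0.0924). With comparison cells also limited to fewer than 2 TFAP2A and TFAP2B UMIs, neither gene was called. GAD1 moved from -0.33 to 1.76 (edgeR adjusted p = 0.402), and GAD2 had an edgeR adjusted p of 0.410.

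The NMDA receptor subunit GRIN2A was at 44.7 and 62.8 CPM against 206 and 224 CPM (-2.10 ± 0.21), and the AMPA receptor subunit GRIA1 at 7.44 and 10.5 CPM against 41.6 and 45.5 CPM (-2.38 ± 0.48). GRIA1 was not called with DESeq2 or among barcodes of at least 4000 UMIs. Higher were GLRA4, a glycine receptor subunit (171 and 164 CPM against 53.6 and 52.2 CPM), the nicotinic receptor subunit CHRNA6 (48.4 and 62.8 CPM against 14.5 and 18.1 CPM) and the metabotropic glutamate receptor GRM8, the last not called without ventral library 1 (0.78). CHRNA6 was not called at the threshold of 2 UMIs per rule gene (1.11, edgeR adjusted p = 0.597) or among barcodes of at least 4000 UMIs. It had 27 UMIs in the larger and 0 in the smaller subcluster.

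Of 47 ion channel genes, 4 were higher and 3 lower, beside 1.9% and 1.85% of all genes. KCNIP4, a subunit of A-type potassium channels, was at 134 and 216 CPM against 31.9 and 35.8 CPM (2.27 ± 0.21), and KCND3, a pore subunit of such channels, at 220 and 241 CPM against 99.2 and 108 CPM. KCND3 was close to the 2-fold limit (1.05) and under it without doublet-scored barcodes (0.99), with no low-count filter, among barcodes of at least 4000 UMIs (0.96) and at the threshold of 2 UMIs per rule gene (0.91). PIEZO2, a mechanically gated channel, was called at 1.21 ± 0.30 but not without ventral library 1 (0.92). The T-type calcium channel CACNA1G (1.44 ± 0.43) was not called without ventral library 1 (edgeR adjusted p = 0.0943) or without ventral library 2 (1.38). TRPC4, of the same channel family as TRPC7, fell by 1.80 ± 0.29, and the potassium channel genes KCNH1 and KCNIP2 were lower, KCNH1 not without ventral library 1 (-0.62) and KCNIP2 not without ventral library 2 (-0.94).

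Calcium-binding proteins included 2 higher and 4 lower genes of 16, beside 1.9% and 1.85% of all genes. PCP4, a modulator of calmodulin, was at 2486 and 2297 CPM against 248 and 259 CPM (3.14 ± 0.08, edgeR adjusted p = 1.41e-15). NECAB1 was at 63.3 and 38.4 CPM against 16.6 and 13.9 CPM and lost its call without ventral library 1 (1.38). Calretinin (CALB2) stood at 264 and 377 CPM against 700 and 717 CPM (-1.25 ± 0.12), CALN1 fell by 1.76 ± 0.19, and HPCAL1 (-1.08) and NRGN (-1.23) were lower too. HPCAL1 was just under 2-fold without ventral library 1, and NRGN was under it without ventral library 2 (-0.77).

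Of 36 axon guidance genes, 6 were higher and 1 lower, beside 1.9% and 1.85% of all genes, with a median of 0.28. SLIT1, a repellent ligand, was at 2140 and 1682 CPM against 375 and 358 CPM (2.27 ± 0.09, edgeR adjusted p = 8.33e-13). The semaphorin SEMA3D was at 234 and 87.3 CPM against 29.0 and 28.4 CPM (2.35 ± 0.28; 1.53 without ventral library 1), and SEMA5B at 149 and 178 CPM against 41.03 and 35.0 CPM (2.01 ± 0.21). SEMA3D had 80 UMIs in the larger and 2 in the smaller subcluster. The receptors NRP1 (1.42 ± 0.18), PLXND1 (1.93 ± 0.46) and EPHB1 (1.29 ± 0.20) rose, and SEMA6A fell by 1.12 ± 0.20, though under 2-fold without ventral library 1 (-0.79). EPHB1 was not called at the threshold of 2 UMIs per rule gene. PLXND1 lost its call without ventral library 1 (2.00) and without ventral library 2 (1.87).

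Adhesion and recognition genes held 9 higher and 5 lower of 61, beside 1.9% and 1.85% of all genes. The netrin receptors UNC5C and UNC5D were at 313 and 332 CPM against 62.0 and 64.6 CPM, and at 242 and 335 CPM against 54.8 and 54.0 CPM. CDH22, a cadherin, was at 78.1 and 83.8 CPM against 15.96 and 13.3 CPM (2.37 ± 0.31), and SDK1, a sidekick adhesion protein of retinal synapses, rose by 2.09 ± 0.21. TENM1 and TENM4, teneurins, rose by 1.30 ± 0.12 and 1.33 ± 0.17, TENM1 by just under 2-fold among barcodes of at least 4000 UMIs.

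CBLN4, a secreted synapse organiser, was at 14.9 and 31.4 CPM against 1.71 and 2.99 CPM, and lost its call without ventral library 2 (2.99). CDH9 had 2 UMIs and was lower by a ratio of 7.46 (2.06 to 61.7), a call lost without ventral library 1 (-2.06 on the log2 scale). C1QL4, also with 2 UMIs (ratio 7.38, 2.04 to 61.1), was no longer called when the comparison cells too were limited to fewer than 2 TFAP2A and TFAP2B UMIs (-0.54, edgeR adjusted p = 0.875). It also lost its call without ventral library 1 (-1.47). Of 14 genes of the axonal cytoskeleton, 0 were called in either direction, beside 3.75% of all genes.

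Of 14 genes of other ganglion cell types, 6 were lower and 1 higher, beside 1.85% and 1.9% of all genes, with a median of -1.47. FSTL1, a secreted glycoprotein, was at 3.72 and 34.9 CPM against 78.0 and 82.7 CPM (-2.13 ± 0.39; -1.33 without ventral library 1 and -4.49 without ventral library 2), and FSTL4 at 22.3 and 20.9 CPM against 68.6 and 68.8 CPM (-1.77 ± 0.33). TPBG had 1 UMI in the EOMES/NTS/NPFF cells and was lower by a ratio of 11.5 (2.05 to 454), a call lost without ventral library 1 (-2.64 on the log2 scale). RPRML was the gene called higher, at 231 and 195 CPM against 72.4 and 73.5 CPM.

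Levels of 11 ganglion cell marker genes that the rule did not use were measured in the group. Their summed level was 6661 and 7337 CPM in EOMES/NTS/NPFF cells against 7764 and 7813 CPM, 0 of the 11 were without a UMI, and 134 of the 146 cells also passed the gate on RBPMS2, NEFM and NEFL. Of these 11, 2 were lower (POU4F1 and POU4F3) and 0 higher, beside 1.85% and 1.9% of all genes. Their median difference was -0.28 against -0.08 over all genes, and only 2 of the 11 were above 0. The 11 include THY1, whose protein the beads selected, so their sum is no check of identity independent of the enrichment. RBPMS2 itself was at 1105 and 907 CPM against 1239 and 1242 CPM.

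Markers of other classes were measured beside these genes. Of 12 amacrine genes outside the rule, 6 had 0 UMIs, among them GAD2 and PTF1A. Of the 9 amacrine genes tested, 0 were called in either direction, beside 3.75% of all genes. The summed level was 409 and 408 CPM against 587 and 580 CPM. The rule limited TFAP2A and TFAP2B in the EOMES/NTS/NPFF cells but not in the comparison cells, so this difference can be partly set by the rule. Bipolar genes summed to 406 and 419 CPM against 566 and 562 CPM, with VSX1, OTX2, TRPM1 and SCGN at 0. Of the 3 bipolar genes tested, 0 were called in either direction. ISL1, which this list shares with the ganglion cell genes, made up 246 and 244 CPM against 355 and 358 CPM of these sums. Photoreceptor genes summed to 11.2 and 3.49 CPM against 7.19 and 7.72 CPM, and blood genes were at 0.

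Horizontal cell genes summed to 238 and 237 CPM against 80.0 and 81.8 CPM. ONECUT1 (1.77 ± 0.23), ONECUT2 and ONECUT3 (1.95 ± 0.46), transcription factors that developing ganglion cells also express in mouse, were called higher, with LHX1 and PROX1 at 0 UMIs. The call of ONECUT2, at 1.00, was lost without ventral library 2 (0.83). ONECUT3 lost its call when EOMES/NTS/NPFF cells too had to pass the ganglion cell gate, at the threshold of 2 UMIs per rule gene, among barcodes of at least 4000 UMIs and with comparison cells drawn to the same depth.

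Müller glia genes summed to 190 and 286 CPM against 176 and 167 CPM, with RLBP1, RGR and GPR37 at 0. Of the 8 genes of this list tested, 1 was called higher and 0 lower, beside 1.9% and 1.85% of all genes. The gene was SOX9, at 22.3 and 6.98 CPM against 1.07 and 0.315 CPM (4.26 ± 0.89), on 8 UMIs. SOX9 was not called at the threshold of 2 UMIs per rule gene (edgeR adjusted p = 0.385). In the main comparison SOX9 passed the low-count filter only through the EOMES/NTS/NPFF cells, so it could only be called higher. Without ventral library 1 it did not pass this filter and was not tested. Oligodendrocyte genes summed to 164 and 171 CPM against 123 and 123 CPM. Of the 3 genes of this list tested, 1 was called higher, while OLIG2, SOX10, MOG and CLDN11 were at 0.

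Of 8 microglia genes, 7 were at 0 and the sum was 7.44 and 17.5 CPM against 8.76 and 7.64 CPM. Of 19 stress genes tested, 2 were called lower and 0 higher, beside 1.85% and 1.9% of all genes. PHGDH differed by -1.37 ± 0.29 and was not called without ventral library 1 (-0.89). ASNS differed by -1.03 ± 0.31 and was not called without ventral library 1 (-1.18) or without ventral library 2 (-0.87). The part of free RNA or of other cell types in the lower amacrine and bipolar sums was not tested. A doublet score marked 6 of the 146 cells (4.11%) and 180 of the comparison cells (3.01%).

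The same rule was applied to whole retina. At E12 it found 8 of 56624 barcodes (0.0141%), and at E18 17 of 30022 (0.0566%), or 15 of the 1596 E18 barcodes with at least 2 UMIs of RBPMS2, NEFM and NEFL (0.940%). Of the 17 E18 barcodes, 10 had PLCB4, 4 had POU4F1 and 1 had OPN4-1. Each E18 library had OPN4-1 in 279 to 330 barcodes, at 21.9 to 25.4 CPM over all barcodes. Nearly all OPN4-1 at E18 thus lay outside the barcodes that passed the rule. Purification differed between these libraries and the E16 ones, so no change with stage can be read from the shares.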

How the data were processed

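The authors deposited UMI counts without normalization, as whole numbers for each gene and barcode; the authors' Cell Ranger 2.1.0 and the build GRCg6a are named in the submitters' processing notes. No sequence or coordinate is given. All deposited barcodes were kept, and 0 columns were without a sample. Doublets were scored from simulated sums in 30 components and 15 neighbours at 0.8% per 1000 barcodes and left out only as an alternative. Clusters used 2000 variable genes without EOMES, NTS, NPFF, TFAP2A and TFAP2B, 40 components, 20 neighbours and Leiden resolution 1 (Python 3.11.15, numpy 2.4.6, scipy 1.17.1, scikit-learn 1.9.0, igraph 0.11.9, leidenalg 0.10.2).

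UMIs were summed per ventral library and set and tested with edgeR 4.0.16 (R 4.3.3; filterByExpr, TMM, 1 residual degree of freedom). The variance of each gene was pooled with that of the other genes at 18.4 prior degrees of freedom. The p-values therefore rest mostly on this shared variance. Adjusted p-values are Benjamini-Hochberg values from this test over all genes tested. Those given for an alternative come from the edgeR fit of that alternative, over the genes tested in it. EOMES, NTS, NPFF, TFAP2A, TFAP2B, RBPMS2, NEFM and NEFL were left out of tests. The library was a block because both sums of a pair come from the same library. Since 0 dorsal barcodes passed the rule, the dorsal term, the difference between regions and the comparison of dorsal with ventral cells could not be fitted. On data simulated for this comparison with 11797 genes, 22% of 2-fold and 83% of 4-fold changes were called, with 2 false calls. The 2-fold changes lay at the calling limit itself (median size 0.94 on the log2 scale), so their percentage does not measure depth alone. The spread between libraries was set larger in the simulation than in the fit, where the common dispersion was 0.0025.

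Named genes were the 15 largest rises and 10 largest falls among genes that were called, had a symbol, reached 50 CPM in the higher set and showed no overlap between libraries, up to 4 called per list at 20 CPM or more, and the melanopsin genes, POU4F1, POU4F2, POU4F3, ISL1, TBR1, SLC17A6, GAD1 and GAD2. ADCYAP1 and further called genes of the lists, such as NR2F1 and UNC5C, were named after their values were seen. A few genes of the lists or under this rule are not reported here, although counts and sums over lists include them. The members and lists were chosen with earlier results of these data known. Counting intervals are exact 95% intervals. The alternatives were other scalings, filters, tools, depths, gates and left-out libraries.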

Additional observations from a re-analysis of the deposited data

How the results depend on the processing

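The main comparison called 445 genes (2029 at an unadjusted p under 0.05), and 0 of the calls shared with any alternative changed sign. DESeq2 called 277 genes, 275 of them shared, and limiting both sets to barcodes of at least 4000 UMIs left 265; the cause was not tested. With no replicate block 590 genes were called, of which 435 were shared. Leaving out libraries under the block leaves no residual degrees of freedom, so each was left out of the fit with no replicate block, to which the dorsal comparison sums also contributed and in which a lone sum was assumed to vary like the other group; 351 to 608 genes were called. Other counts stayed within 1.5 times of 445, from 321 (marker threshold of 2 UMIs) to 554 (EOMES and NTS both required, an alternative chosen after seeing the data, as were the fits without a block that leave out a library). Like counts did not mean the same genes. Of the 445 main calls, 244 (54.8%) were kept at the threshold of 2 UMIs and 233 (52.4%) among barcodes of at least 4000 UMIs. Without doublet-scored barcodes 333 (74.8%) were kept, and with EOMES and NTS both required 414 (93.0%).

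The mean ventral share of 2.13% became 0.998% after thinning to 1500 UMIs, 2.19% of barcodes passing the ganglion cell gate, 0.796% at a threshold of 2 UMIs, 2.31% without the limit on TFAP2A and TFAP2B, and 2.101% without doublet-scored barcodes; leaving out a ventral library gave 2.12% to 2.15%. The dorsal share was 0 in each of these. The share of the EOMES/NTS/NPFF cells in the cluster that held most of them, 82.2% in the report, was 91.1% at resolution 0.5 and 54.1% at resolution 2.

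Of 1096 values of 69 named genes, 1001 kept direction and side of the threshold, 87 lost the call, 5 gained it and 3 moved. A fit of the ventral libraries alone with the replicate block is identical to the main one, and the alternatives for dorsal against ventral cells were not run. Depth limits single genes: those with 1 to 3 UMIs in the 146 cells have wide counting intervals.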

Other observations

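DRD2, a dopamine receptor outside the lists and chosen after its values were seen, was at 33.5 and 24.4 CPM in EOMES/NTS/NPFF cells against 0.997 and 1.58 CPM in the comparison cells of the ventral libraries (4.37 ± 0.66 on the log2 scale, edgeR adjusted p = 1.31e-04). On the comparison cells alone DRD2 would not have passed the low-count filter.

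HINTW, a gene of the W chromosome that marks female cells in birds, was used to describe the embryos. Among barcodes with at least 2000 UMIs, it had at least 3 UMIs in 43 of 71 (60.6%) and 32 of 64 EOMES/NTS/NPFF cells and in 42.4% and 41.4% of comparison cells of ventral libraries 1 and 2. The difference was not tested, and its part in the gene differences was not tested.

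EOMES was detected in 16.3% of the 527 amacrine-like ventral barcodes with at least 4 TFAP2A and TFAP2B UMIs, but NTS in 3.61% and NPFF in 1.33%. Of the 12 barcodes with at least 2 of the 3 genes and 2 or more of these UMIs, all had EOMES, 1 had POU4F1 and 0 had OPN4-1 or NDNF, which allows a share of up to 25% at 3 counts of 12.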
